A study of Homo sapiens with 6 samples.

Results

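The genes described here are 10 regulators of alternative splicing, RBM47, ESRP1, ESRP2, RBFOX2, QKI, PTBP1, PTBP2, MBNL1, MBNL3 and A1CF. They were taken by gene symbol, and each had 1 row among the 35856 genes of the deposited table. They were chosen by name, with earlier results of these data known. RNA was sequenced from 6 libraries of HCCLM3, an established human hepatocellular carcinoma line. In 3 libraries the cells had been transfected with a vector carrying LINC00862, a long non-coding RNA (the LINC00862 group), and in the other 3 with the vector alone, a group named NC in the labels and Empty here. Both groups carried a vector, and whether it was transient or stable in the sequenced cells is not given in the sources used here. Nothing states that the libraries of a group came from separate cultures, so the p-values measure the spread between libraries, which may be technical. The comparison asks how the level of RBM47, the gene the study followed, and of the other splicing regulators differed when LINC00862 was overexpressed. The paper picked RBM47 from this same RNA comparison, as the gene shared by the strongest rises in RNA and in protein. Its rise in these libraries was thus part of its selection and is not independent evidence.

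Splicing regulators bind short motifs in or beside an exon and decide, with the core splicing machinery, whether that exon is kept. ESRP1 and ESRP2 are made in epithelial cells and keep the epithelial forms of transcripts such as FGFR2 and CD44. RBFOX2 and QKI are known for the mesenchymal forms of many of the same transcripts, and QKI also promotes circular RNAs. RBM47 carries the same kind of RNA recognition motifs as A1CF, and both serve as partners of the cytidine deaminase APOBEC1, which edits the APOB transcript in the intestine. PTBP1 mostly represses exons, PTBP2 is its neuronal paralog, and the muscleblind proteins MBNL1 and MBNL3 regulate splicing during differentiation.

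The overexpressed gene itself differed in the direction of the labels, with LINC00862 counts between 6 and 21 in Empty and between 76 and 145 in LINC00862. Its mean FPKM was 0.0507 in Empty and 0.449 in LINC00862. Its log2 fold change of 3.22 (SE 0.53, edgeR adjusted p = 0.000583) ranked 3010 among the rises of all tested genes. A rise of that rank does not by itself verify the labels. Total counts lay between 58241123 and 68229070 per library. The groups also differed in their cell type markers. Over all 20741 tested genes, edgeR at an adjusted p of 0.05 called 34.4% higher and 29.8% lower, the shares to set beside each count below. Of the epithelial markers, 11 of 13 tested were higher in LINC00862 and 1 was lower, and the summed FPKM of the list lay between 248 and 352 in Empty and between 675 and 824 in LINC00862. A second, KRT8, was called lower without Empty replicate 1, which makes 2. Of the mesenchymal markers, 9 of 12 were lower and 1, COL1A1, was higher, and the summed FPKM lay between 890 and 908 in Empty and between 26.1 and 30.4 in LINC00862, where POSTN was at 0. Hepatocyte markers were nearly absent in Empty, with a summed FPKM between 5.67 and 5.93 and with 3 of the 10 listed genes at 0, TTR among them. In LINC00862 that sum lay between 1260 and 1507, and 7 of 8 tested hepatocyte markers were higher and 1, SERPINA1, was lower. Most of the sum in LINC00862 came from FGA and FGB, with mean FPKM of 796 and 550. ALB and TTR had means of 1.51 and 0.464 there, and APOA1 and APOA2 were too low to be tested. The sum is thus not a level shared by the listed hepatocyte markers. None of the 3 summed levels overlapped between the groups, and their part in the changes of the splicing regulators was not tested. Whether the groups held the same cells apart from the vector was not tested either, so every fold below compares the libraries as labelled, and an effect of LINC00862 and another difference between the cells cannot be told apart.

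All 10 regulators passed the filter on low counts. Of these, 9 were called by edgeR's quasi-likelihood test at an adjusted p of 0.05, where 64.2% of all 20741 tested genes were called. The regulators called higher in LINC00862 were RBM47, ESRP1, MBNL3 and A1CF, 4 of 10 against 34.4% of all tested genes. RBFOX2, QKI, PTBP1, PTBP2 and MBNL1 were called lower, 5 of 10 against 29.8%. ESRP2 was not called. With this many genes called, the call alone does not set the regulators apart, so the sizes are given throughout. The median absolute log2 fold change was 2.78 over the 10 regulators and 1.16 over all tested genes. In edgeR's test against a fold change of 2, 4 of the 10 were called higher and 4 lower, where 38.6% of all tested genes were called. The FPKM, a level scaled by the length of the gene and the size of the library, did not overlap between the groups in 9 of the 10, against 71.1% of all tested genes, with 4 higher against 34.4% and 5 lower against 36.6%. For each of those 9 the exact two-sided permutation test gave p = 0.1, the smallest that 3 libraries against 3 allow. In bulk RNA, fewer cells of a type and less RNA per cell cannot be told apart.

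**Figure D1:**
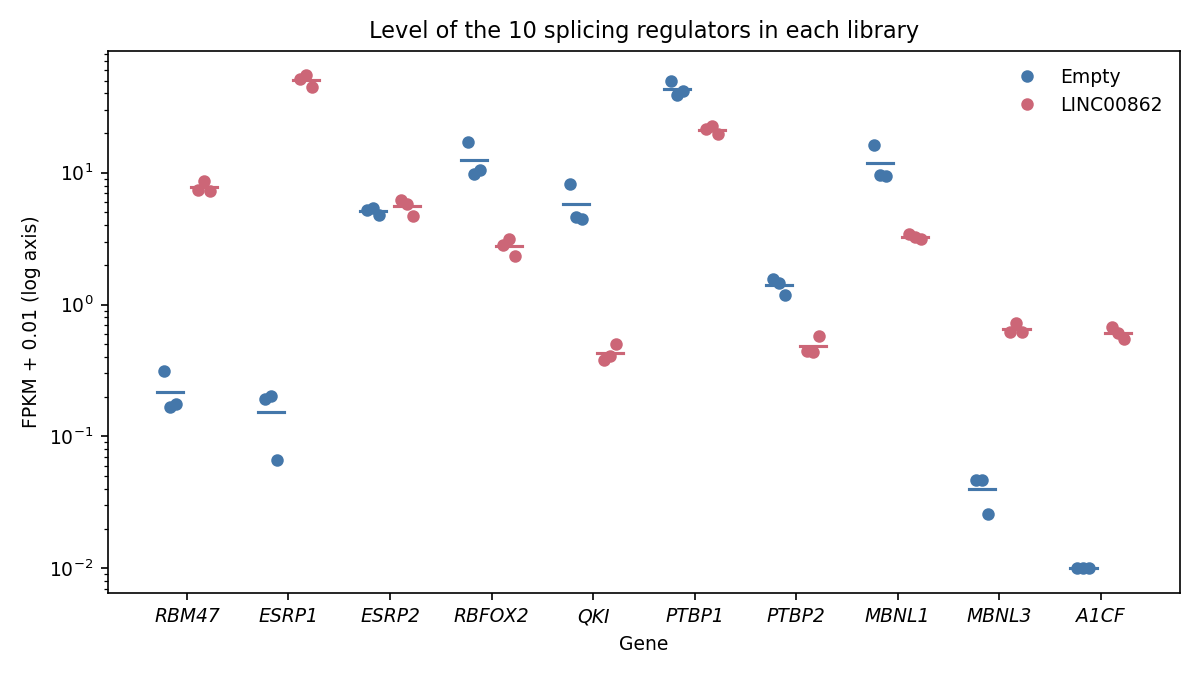
FPKM + 0.01 on a log axis for each of the 10 splicing regulators, with 1 point per library, Empty in blue and LINC00862 in red, and a bar at the group mean. The groups are apart for 9 genes and overlap for ESRP2, and A1CF sits at 0 counts in all 3 Empty libraries.

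**Figure D2:**
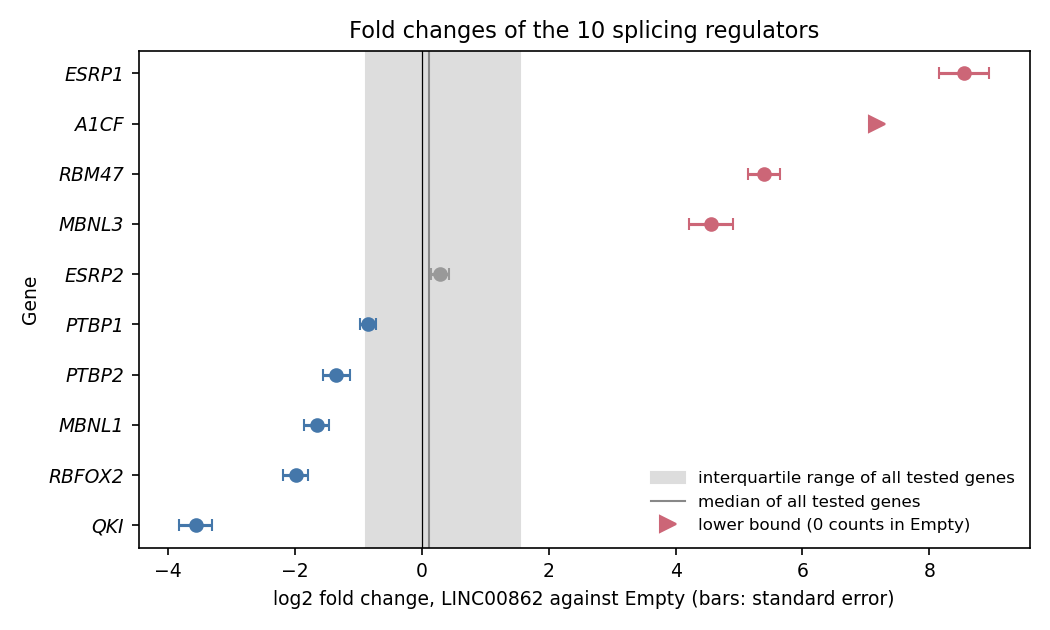
Fitted log2 fold change of LINC00862 against Empty for each regulator, with its standard error, beside the interquartile range of all tested genes (grey band, from -0.89 to 1.55) and their median (0.11). RBM47, ESRP1 and MBNL3 lie right of the band, A1CF is drawn at its lower bound, and QKI, RBFOX2, MBNL1 and PTBP2 lie left of it, while PTBP1 and ESRP2 (not called, in grey) lie inside.

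The epithelial splicing regulatory proteins came apart. ESRP1 (ENSG00000104413, hg38 chromosome 8, 94641074 to 94707466, plus strand) had 61, 65 and 20 counts in Empty libraries 1 to 3 and 19116, 17625 and 14642 in LINC00862. In FPKM the Empty libraries were at 0.183, 0.193 and 0.0567 and the LINC00862 libraries at 51.3, 54.7 and 44.8, with means of 0.144 ± 0.0760 and 50.3 ± 5.05 (SD, n = 3). Every LINC00862 library was far above every Empty library, and the log2 fold change was 8.55 (SE 0.39, edgeR adjusted p = 2.91e-07), higher than that of 97.6% of all tested genes. ESRP2 (ENSG00000103067, hg38 chromosome 16, 68229033 to 68238102, minus strand), which binds the same motifs, had FPKM of 5.18, 5.36 and 4.81 in Empty and 6.18, 5.81 and 4.70 in LINC00862. Those ranges overlapped, and LINC00862 library 3 was below all Empty libraries. The log2 fold change of ESRP2 was 0.29 (SE 0.14, edgeR adjusted p = 0.105; exact permutation p = 0.5). With DESeq2 it was 0.34 (adjusted p = 0.0369) and with upper quartile scaling in edgeR 0.50 (adjusted p = 0.0124), so the call for ESRP2 rests on the scaling. In Empty, ESRP1 made up 2.69% ± 1.32 (SD, n = 3) of the summed FPKM of the pair, and in LINC00862 it made up 90.0% ± 0.70 (exact permutation p = 0.1). Divided by the FPKM of ESRP2, that of ESRP1 gave 0.0353, 0.0361 and 0.0118 in Empty and 8.29, 9.43 and 9.52 in LINC00862, so the pair changed places.

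RBM47 and its relative A1CF were both higher in LINC00862. RBM47 (ENSG00000163694, hg38 chromosome 4, 40423267 to 40630875, minus strand) had 89 to 172 counts in Empty and 4157 to 4861 in LINC00862. Its levels in Empty were 0.301, 0.158 and 0.165 FPKM, and those in LINC00862 were 7.42, 8.61 and 7.25 FPKM. The first Empty library held the highest of the control values and was still far below each LINC00862 library. The log2 fold change was 5.40 (SE 0.25, edgeR adjusted p = 2.8e-07), a 42.1-fold difference that ranked 1821 among the rises of all tested genes. The paper ranked rises after a filter on FPKM that was not applied here, so its ranking and this rank are not alike. A1CF (ENSG00000148584, hg38 chromosome 10, 50799409 to 50885675, minus strand), the complementation factor of APOBEC1, had 0 counts in each Empty library and 488, 386 and 348 in LINC00862, with an FPKM of 0.600 ± 0.0613 (SD, n = 3). Against a floor of 3 counts in each Empty library, A1CF was at least 144-fold higher in LINC00862 (edgeR adjusted p = 3.59e-06), a bound that covers counting error only. Of the summed FPKM of RBM47 and A1CF in LINC00862, A1CF made up 7.21% ± 0.853 (SD, n = 3), so RBM47 was the more abundant of the pair in both groups.

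A stretch inside RBM47, before an internal start, is shown because it holds the letters of an E-box. It lies outside any exon of the gene in GENCODE 29. Windows of 300 bases, 250 before and 50 after a start, came from RefSeq on GRCh38.p14, which held 15 windows for 6 of the 10 regulators (RBM47, PTBP1, PTBP2, MBNL1, MBNL3 and A1CF). The letters CACCTG or CAGGTG, an E-box of the kind that ZEB and SNAI factors bind, were in 1 of the 15, at an internal start of RBM47, where they begin 208 bases before the start. They are in 20.6% of 35116 windows of all genes. The stretch is on the minus strand, written 5′ to 3′ with the motif in capitals, at chr4:40514759-40514831. A match is a description of the letters and not a site.
RBM47: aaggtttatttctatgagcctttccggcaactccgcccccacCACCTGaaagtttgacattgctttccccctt

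In a list of the APOBEC1 editing complex and its target APOB, 2 of 4 genes tested were higher and 2 were lower. Over all tested genes these shares were 34.4% and 29.8%. APOB was 1 of the 2 that were higher. APOBEC1 itself was at 0 counts in 5 of the 6 libraries and was not tested. APOB, the transcript that the complex edits, had FPKM of 0.113, 0.170 and 0.149 in LINC00862 and was at 0 in Empty libraries 2 and 3 (log2 fold change 6.26, SE 0.87, edgeR adjusted p = 0.000218). CELF2, a splicing regulator that also binds APOB RNA, was higher (log2 fold change 2.55, SE 0.19, edgeR adjusted p = 4.29e-06). SYNCRIP and KHSRP, RNA-binding proteins found in the editing complex, were lower, with log2 fold changes of -0.997 (SE 0.14) and -0.73 (SE 0.17). Whether any transcript was edited cannot be read from gene counts.

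RBM47 was then set beside each of the other 9 regulators. For this the log2 ratio of the FPKM of RBM47 to that of the other gene was taken in each library, with 0.01 added to both, and an exact permutation test, two-sided, was run between the groups. Each of the 9 comparisons gave an exact permutation p of 0.1 (0.1 after Benjamini-Hochberg adjustment), the smallest p possible, so none could pass 0.05. The change of RBM47 was smaller than that of ESRP1 by a log2 difference of -3.29 (SE 0.49). It was larger than that of MBNL3 by 1.12 (SE 0.30), and larger than that of ESRP2 by 5.10 (SE 0.31). Against the 5 genes that fell, the difference ran from 6.24 (SE 0.20) for PTBP1 to 8.91 (SE 0.17) for QKI. The value for A1CF, -0.71 (SE 0.31), rests on its 0 counts in Empty and turned to 2.18 when 1 was added in place of 0.01. No direction is given for that pair.

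QKI and RBFOX2, both known for mesenchymal splicing, fell. QKI (ENSG00000112531, hg38 chromosome 6, 163414000 to 163573800, plus strand) had FPKM of 8.27, 4.61 and 4.43 in Empty and 0.372, 0.397 and 0.491 in LINC00862. Its counts went from between 5132 and 9515 to between 458 and 575, and no LINC00862 library came near an Empty library. The log2 fold change of QKI was -3.57 (SE 0.26, edgeR adjusted p = 4.09e-06), the largest fall of the 10, and the mean FPKM in LINC00862 was 7.28% of that in Empty. RBFOX2 (ENSG00000100320, hg38 chromosome 22, 35738736 to 36028824, minus strand) had FPKM of 17.2, 9.72 and 10.5 in Empty and 2.82, 3.12 and 2.33 in LINC00862. Its log2 fold change was -1.99 (SE 0.20, edgeR adjusted p = 2.95e-05), and 22.1% of the Empty level was left. The first Empty library was the highest for both QKI and RBFOX2. The paralogs of RBFOX2 were near 0 in both groups. RBFOX3 had a mean FPKM of 0.0316 in Empty and 0.0524 in LINC00862 and was not called (edgeR adjusted p = 0.228), and RBFOX1, with between 0 and 10 counts, was not tested.

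Because QKI fell and RBM47 rose, their order was exchanged. The FPKM of QKI was 27.5, 29.3 and 26.9 times that of RBM47 in the 3 Empty libraries, and that of RBM47 was 19.9, 21.7 and 14.8 times that of QKI in LINC00862. RBFOX2 and ESRP1 were exchanged in the same way. RBFOX2 was 94.1, 50.3 and 185 times ESRP1 in Empty, and ESRP1 was 18.2, 17.6 and 19.2 times RBFOX2 in LINC00862. These ratios are of levels per kilobase, and the wide range in Empty comes with the 20 to 65 counts of ESRP1 there.

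The muscleblind genes changed in composition. MBNL1 (ENSG00000152601, hg38 chromosome 3, 152243828 to 152465780, plus strand), the most widely made of the family, fell from FPKM of 16.3, 9.57 and 9.46 in Empty to 3.40, 3.25 and 3.12 in LINC00862. The log2 fold change was -1.66 (SE 0.19, edgeR adjusted p = 7.4e-05). MBNL3 (ENSG00000076770, hg38 chromosome X, 132369317 to 132489866, minus strand) had 30, 31 and 14 counts in Empty and 572, 577 and 499 in LINC00862, with a mean FPKM of 0.0298 ± 0.0123 and 0.645 ± 0.0606 (SD, n = 3). It rose by a log2 fold change of 4.55 (SE 0.34, edgeR adjusted p = 5.08e-06) and stayed the least abundant of the 3. MBNL2, which is not among the 10 and is the remaining member of the family, was also higher, with FPKM of 10.1, 5.62 and 5.60 in Empty and 13.2, 13.9 and 13.8 in LINC00862 (log2 fold change 1.14, SE 0.21, edgeR adjusted p = 0.00114). In the summed FPKM of the 3 genes, MBNL1 went from 62.4% ± 0.70 to 18.6% ± 1.02 (SD, n = 3), MBNL2 from 37.4% ± 0.73 to 77.8% ± 1.01, and MBNL3 from 0.162% ± 0.0715 to 3.67% ± 0.291. The exact permutation p was 0.1 for each share. Their sum came to 18.9 ± 6.54 and 17.5 ± 0.297 FPKM (SD, n = 3; exact permutation p = 1.0) in Empty and LINC00862, so the spread of the Empty libraries was larger than the difference. That spread came with the first Empty library, the highest of the 3 for MBNL1 and MBNL2. In summed counts the values were 10115 ± 3463 in Empty and 7501 ± 558 in LINC00862 (SD, n = 3, exact permutation p = 0.2). Whether the sum differed is thus left undecided.

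PTBP1 and PTBP2 fell together. PTBP1 (ENSG00000011304, hg38 chromosome 19, 797075 to 812327, plus strand), the most abundant of the 10 in Empty, had FPKM of 49.2, 38.8 and 42.0 in Empty and 21.5, 22.6 and 19.6 in LINC00862. The log2 fold change was -0.85 (SE 0.13, edgeR adjusted p = 0.000413), and 25.8% of all tested genes had a lower log2 fold change. It is below 2-fold, and in edgeR's test against a fold change of 2, which called 38.6% of all tested genes, PTBP1 was not called (adjusted p = 0.944). PTBP2 (ENSG00000117569, hg38 chromosome 1, 96721665 to 96815029, plus strand) had FPKM of 1.55, 1.45 and 1.17 in Empty and 0.436, 0.424 and 0.568 in LINC00862, with a log2 fold change of -1.35 (SE 0.21, edgeR adjusted p = 0.000422). PTBP3, the remaining paralog and not among the 10, was at 13.4 ± 3.98 FPKM in Empty, was at 10.8 ± 1.27 in LINC00862 (SD, n = 3) and was not called (edgeR adjusted p = 0.566). The sum of the 3 genes was 58.1 ± 9.27 in Empty and 32.6 ± 2.69 in LINC00862 (exact permutation p = 0.1). PTBP1 made up 74.8% ± 3.15 of it in Empty and 65.3% ± 0.83 in LINC00862, and PTBP2 made up 2.41% ± 0.350 and 1.48% ± 0.377. The ratio of PTBP1 to PTBP2 was 31.7, 26.7 and 36.1 in Empty and 49.4, 53.3 and 34.6 in LINC00862, and these ranges overlapped.

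**Figure D3:**
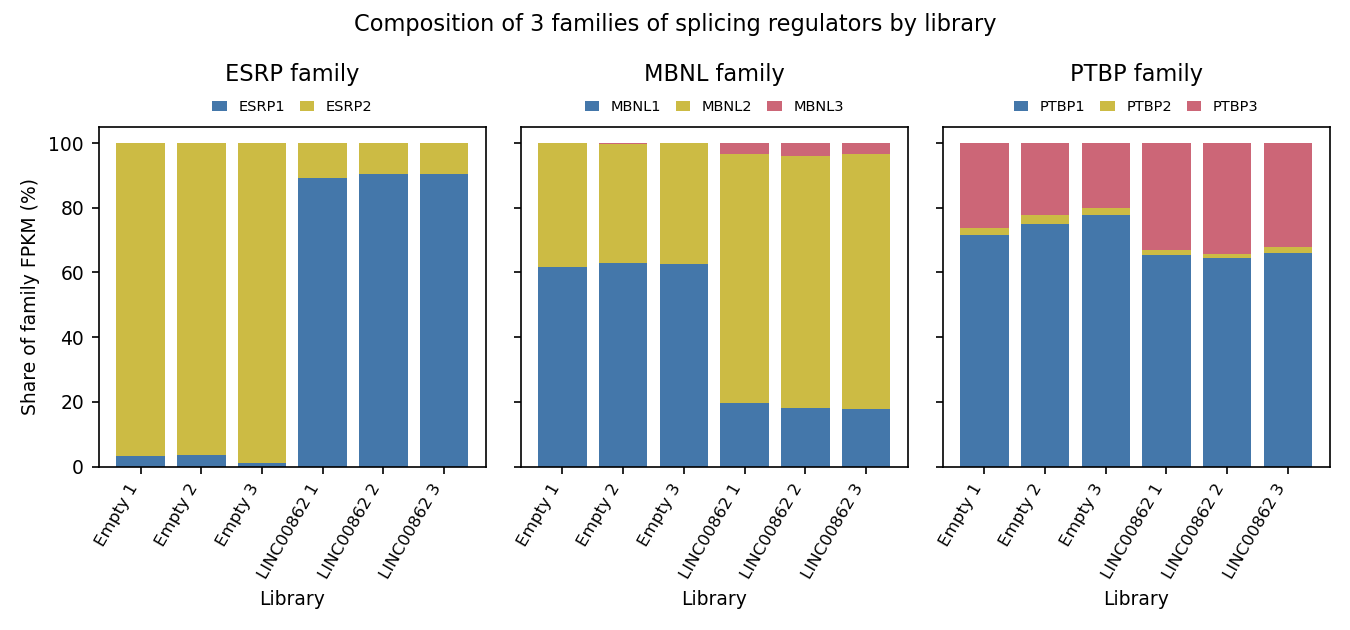
Share (%) of each paralog in the summed FPKM of its family, 1 stacked bar per library, for the ESRP, MBNL and PTBP families. ESRP1 goes from 2.69% to 90.0% of its pair and MBNL1 from 62.4% to 18.6% of its family (group means), while PTBP1 stays the largest part of its family in all 6 libraries.

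Ranked by mean FPKM, the order of the 10 in Empty was PTBP1, RBFOX2, MBNL1, QKI, ESRP2, PTBP2, RBM47, ESRP1, MBNL3 and A1CF. The ranges of RBFOX2 and MBNL1 overlapped there, as did those of QKI and ESRP2 and those of RBM47 and ESRP1. In LINC00862 the order was ESRP1, PTBP1, RBM47, ESRP2, MBNL1, RBFOX2, MBNL3, A1CF, PTBP2 and QKI. MBNL1 overlapped RBFOX2, and each of MBNL3, A1CF and PTBP2 overlapped the next in the order. RBM47 thus went from rank 7 to rank 3, and QKI from rank 4 to rank 10. The sum of the FPKM of all 10 was 80.2 ± 15.6 in Empty and 93.0 ± 8.25 in LINC00862 (SD, n = 3).

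Transcription factors and a microRNA host known to act on ESRP1, ESRP2 and QKI also differed between the groups. Of the 11 in the list, 6 were higher in LINC00862 (against 34.4% of all tested genes), 4 were lower (against 29.8%) and 1 was not called. The epithelial factors that rose were GRHL2 (log2 fold change 7.95, SE 0.58), OVOL1 (7.43, SE 0.24), ELF3 (5.40, SE 0.17) and GRHL1 (1.56, SE 0.26). OVOL2, which represses ZEB1, was at 0 counts in Empty and at least 17.6-fold higher. MIR200CHG, the host of miR-200c and miR-141, which target ZEB1, ZEB2 and QKI, was also at 0 counts in Empty, had FPKM of 2.69, 3.40 and 2.24 in LINC00862, and was at least 24.2-fold higher (edgeR adjusted p = 9.83e-05). The mesenchymal factors that fell were TWIST1 (log2 fold change -7.93, SE 0.78), ZEB2 (-5.61, SE 0.36), SNAI2 (-4.88, SE 0.38) and ZEB1 (-1.25, SE 0.30), where ZEB1 and ZEB2 are repressors of ESRP1. SNAI1 was not called (log2 fold change -0.30, SE 0.44). The list was chosen with the direction of ESRP1 and QKI known, and its median log2 fold change of 1.56 is a description.

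Other splicing genes in the same libraries fell in more cases than they rose. Over all tested genes, 29.8% were called lower and 34.4% higher. Those 20741 genes include many of low level, and 11071 genes had 100 or more counts everywhere. Split by length into 4 classes, the latter had median log2 ratios of FPKM between the groups of -0.43, -0.37, -0.42 and -0.39, without TMM scaling. The lists below were not set beside genes of like level. Among 14 SR proteins, which promote exon inclusion, 10 were lower, 1 was higher and 3 were not called, with a median log2 fold change of -0.86 beside 0.11 over all tested genes. The largest falls were SRSF2 (-1.32, SE 0.16), TRA2B (-1.31, SE 0.13) and SRSF11 (-1.05, SE 0.19), and SRSF8 was the member that rose (1.72, SE 0.14). Among 21 hnRNP proteins, many of which repress exons, 17 were lower, 1 was higher and 3 were not called, with a median of -0.85. HNRNPD (-1.80, SE 0.16), HNRNPH3 (-1.59, SE 0.15) and HNRNPH1 (-1.38, SE 0.16) fell most. The rise of PCBP1 (0.46, SE 0.15, edgeR adjusted p = 0.0222) was lost without Empty replicate 2 (adjusted p = 0.0530), without LINC00862 replicate 1 (adjusted p = 0.0750) and without LINC00862 replicate 3 (adjusted p = 0.0644), each leaving 0 hnRNP genes higher. Among 25 genes of the core spliceosome, 21 were lower, 0 were higher and 4 were not called, with a median of -1.02, led by SNRPB (-2.49, SE 0.20), U2AF1 (-1.93, SE 0.18) and SNRPG (-1.63, SE 0.24). PTBP1, itself counted among the hnRNP family as hnRNP I, had a log2 fold change of -0.85, close to the median of that list.

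The tissue-restricted splicing regulators outside the 10 had larger changes in both directions. Of 14 tested, 5 were higher (against 34.4% of all tested genes) and 7 were lower (against 29.8%). Their median log2 fold change was 0.01 and their median absolute change was 2.44, near the 2.78 of the 10. CELF3 (5.65, SE 0.95), SRRM3 (5.63, SE 0.42), a regulator of microexons, and RBM20 (5.00, SE 0.77), which splices titin in the heart, rose most. RBMS3 (-5.51, SE 0.36), RBM24 (-5.50, SE 0.42) and ELAVL2 (-3.80, SE 0.81) fell most. SRRM3 alone of these 6 was above an FPKM of 2 in any library, with 5.39, 5.50 and 2.77 in LINC00862 and at most 0.145 in Empty.

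**Figure D4:**
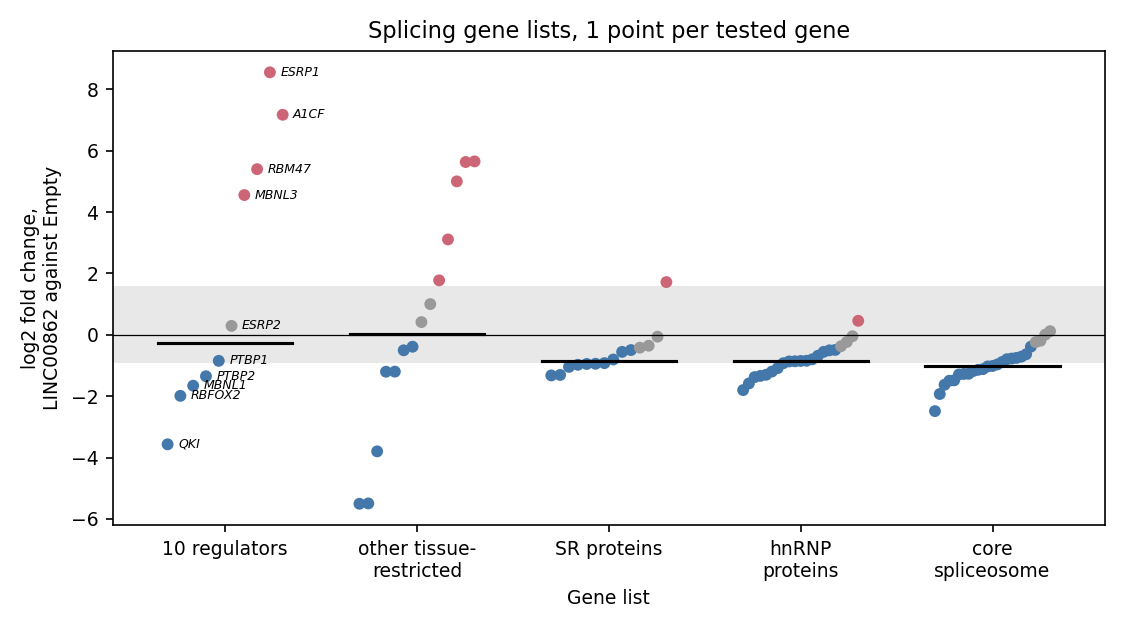
Log2 fold change of LINC00862 against Empty, 1 point per tested gene, for the 10 regulators and for 4 lists of splicing genes, with called genes in red (higher) and blue (lower), genes not called in grey, a bar at each median and a band for the interquartile range of all tested genes. The 10 regulators run from -3.57 (QKI) to 8.55 (ESRP1) with A1CF at its lower bound, and the SR, hnRNP and core lists have medians of -0.86, -0.85 and -1.02.

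Transcripts whose exons the 10 regulators are known to choose were also counted. Of 14 such genes, 10 were lower (against 29.8% of all tested genes), 2 were higher (against 34.4%) and 2 were not called. Their median log2 fold change was -0.97. FGFR2 (-7.11, SE 0.42), whose IIIb and IIIc forms depend on ESRP1 and RBFOX2, and CD44 (-3.19, SE 0.15), a target of ESRP1, were among those that fell. FGFR2 went from FPKM of 4.71, 3.27 and 3.00 in Empty to 0.0323, 0.00685 and 0.0246 in LINC00862. SLK rose (1.34, SE 0.22, edgeR adjusted p = 0.000533). CTNND1, another ESRP target, was called higher (0.75, SE 0.25, edgeR adjusted p = 0.0284) with FPKM that overlapped between the groups. That call was lost without Empty replicate 2 (adjusted p = 0.0919) or 3 (0.0539) and without LINC00862 replicate 1 (0.0614), 2 (0.0575) or 3 (0.0892), and 1 gene, SLK, was then left higher. The deposited values give 1 level per gene, so which exons these transcripts kept cannot be read from them.

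Genes that overlap the 10 in the table were checked for shared reads. MBNL1-AS1, opposite to MBNL1, had 146, 78 and 77 counts in Empty and 8, 33 and 28 in LINC00862, against at least 2091 for MBNL1, and fell with it (log2 fold change -1.96, SE 0.58, edgeR adjusted p = 0.0148). RAP2C-AS1, opposite to MBNL3, rose with it, with 4, 10 and 4 counts in Empty and 78, 12 and 25 in LINC00862 (log2 fold change 2.67, SE 0.79, edgeR adjusted p = 0.0153). AC098869, opposite to RBM47, had 0 counts in Empty and 5, 5 and 19 in LINC00862. ESRP2 shares its strand with AC020978 (ENSG00000262160), which had between 889 and 2031 counts and was not called (log2 fold change -0.22, SE 0.31, edgeR adjusted p = 0.558), so reads of ESRP2 could be split with it. The pseudogene PTBP1P had between 0 and 4 counts. The library protocol marks the strand, but whether the counting used it is not given in the sources used here, so for the antisense pairs the reads cannot be told apart with certainty.

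The first Empty library stood above the other Empty libraries for most of the regulators. Its FPKM over the mean of the other 2 was 1.87 for RBM47, 1.83 for QKI, 1.71 for MBNL1, 1.70 for RBFOX2, 1.46 for ESRP1, 1.42 for MBNL3, 1.22 for PTBP1, 1.19 for PTBP2 and 1.02 for ESRP2. The same ratio followed the length of the gene. When the genes that had 100 or more counts everywhere were split by length into 4 equal classes, its median was 0.827 in the class of the shortest genes and 1.06, 1.22 and 1.41 in the next classes. By their length, RBM47, QKI, MBNL1, RBFOX2, PTBP2 and MBNL3 fall in the class of the longest. ESRP1 and ESRP2 fall in the class with a median of 1.06, and PTBP1 in that with 1.22. RBM47, ESRP1 and MBNL3 had fewer than 100 counts in some libraries and did not enter the medians. The median log2 ratio of the FPKM between the groups did not follow length in this way, at -0.43, -0.37, -0.42 and -0.39 from the shortest to the longest class. What made this library differ was not tested. Without it, all 9 calls among the 10 regulators kept their direction and their side of the threshold.

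**Figure D5:**
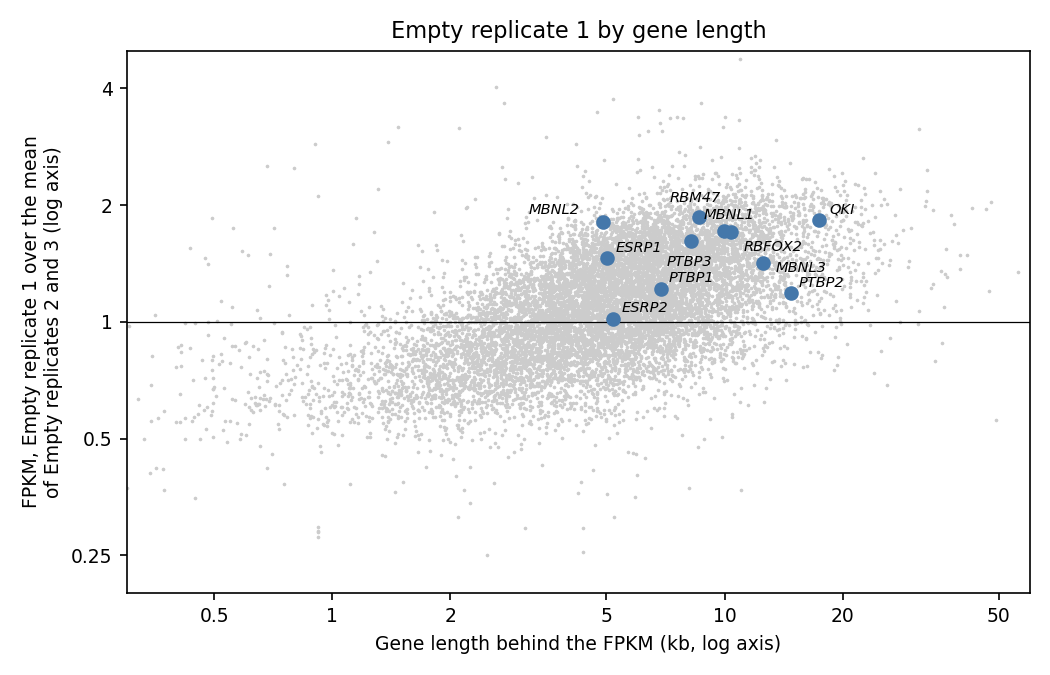
FPKM in Empty replicate 1 over the mean of Empty replicates 2 and 3 against the gene length behind the FPKM, both on log axes, with genes of 100 or more counts everywhere in grey and the regulators with counts in Empty, plus MBNL2 and PTBP3, in blue. The grey cloud rises with length, from a median of 0.827 in the class of the shortest genes to 1.41 in that of the longest, and RBM47 and QKI lie at 1.87 and 1.83.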

How the data were processed

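Polyadenylated RNA of 3 Empty and 3 LINC00862 libraries was sequenced in pairs with strand-marked libraries. The submitters' processing notes name cutadapt 1.9, HISAT2 2.0.4, UMI-tools, StringTie 1.3.4d, DESeq2, edgeR and hg38. The authors deposited 2 values for each gene, the raw read count and the FPKM, scaled by gene length and mapped fragments. The length behind the deposited FPKM, derived from count and FPKM, was within 5% of the union of GENCODE 29 exons in 85.6% of 11052 genes after 1 common factor, so a gene with many rarely used exons is scaled down. The authors' own fold changes and p-values were not used.

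Counts were fitted over all genes with edgeR 4.0.16 in R 4.3.3 (filterByExpr, TMM, quasi-likelihood test, Benjamini-Hochberg at 0.05). Depth was 58241123 to 68229070 counts. Floors were 3 counts per library and cover counting error only. Levels and ratios used FPKM with exact two-sided permutation tests. No 2 libraries differed by as little as sampling noise. The alternatives were DESeq2 1.42.0, limma-trend 3.58.1 on log2(FPKM + 1) and log2(FPKM + 0.1) for genes that reached a mean FPKM of 0.1 in a group, other scalings, no filter, a replicate block, a test against a fold change of 2, and leaving out each library. The members and lists were chosen with earlier results of these data known. Named outside the 10 are all genes of the family, APOBEC1 and ESRP/QKI regulator lists, overlapping genes and pseudogenes by symbol. Of each other list, up to 3 rises and 3 falls among called genes without overlap are named. CTNND1, KRT8 and PCBP1 were checked after their values were seen. The hepatocyte markers FGA, FGB, ALB, APOA1 and APOA2 were also named after their values were seen. RBM46, ELAVL3, RAB25, APOC3 and AHSG were not analysed here. Some genes that this rule would name are not reported here.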

Additional observations from a re-analysis of the deposited data

How the results depend on the processing

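All 9 calls kept their direction under the 14 alternatives, and they kept their side of the threshold except for PTBP1, which was not called in the test against a fold change of 2 (log2 fold change -0.85, adjusted p = 0.944). ESRP2 passed the threshold with DESeq2 (0.34) and upper quartile scaling (0.50). The log2 fold change of RBM47 lay between 2.86 (limma-trend on log2(FPKM + 1)) and 5.70 (without Empty replicate 1). With the same limma-trend, which by adding 1 understates the change of low genes, the log2 values were 5.48 for ESRP1, 0.68 for MBNL3 and 0.68 for A1CF. Scaling by TMM put the median gene at a log2 fold change of 0.11 with 53.6% of the calls higher, DESeq2 at 0.16 with 55.1%, the upper quartile at 0.32 with 60.4%, and the library size alone at -0.05 with 48.5%. In the test against a fold change of 2, the genes called were 8010, and the counts fell to 0 higher in the families outside the 10, 0 lower in the APOBEC1 complex, 3 lower among other tissue-restricted regulators, 2 lower among SR proteins, 0 higher and 5 lower among hnRNP proteins, 6 lower in the core spliceosome, and 0 higher and 3 lower among spliced transcripts. With library size only, with the replicate block, and with limma-trend on either scale, 0 hnRNP genes were higher, and this count was 0 to 1 over the libraries left out. With library size only and with limma-trend on either scale, 1 spliced transcript was higher, and this count was 1 to 2 over the libraries left out. For epithelial markers called lower the range was 1 to 2. The same-numbered libraries correlated at -0.0489, -0.0254 and -0.00737 in their deviations from the group means, so the numbers do not pair them. A fit with the replicate block called 12098 genes and gave RBM47 a log2 fold change of 5.43.

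The log2 change of RBM47 minus that of most other regulators shrank as the value added to the FPKM grew. With 1 and 0.1 added, it was 2.76 and 4.59 for ESRP2, 4.66 and 6.80 for RBFOX2, 5.07 and 8.14 for QKI, 3.85 and 5.72 for PTBP1, 3.55 and 6.07 for PTBP2, 4.403 and 6.48 for MBNL1, and 2.18 in both cases for MBNL3, where it grew. For A1CF it turned to 2.18 and 1.897. Taken from counts in place of FPKM, the share changed by -1.87 percentage points for PTBP2, by 7.08 for MBNL3, by -46.7 for MBNL1 and by 8.08 for A1CF. With 3 libraries a group, no single-gene permutation test could go below 0.1, and the 14 to 65 counts of ESRP1 and MBNL3 in Empty limit the precision of their folds.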
